A study of Mus musculus with 16 samples.

Results

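The 10 genes described here control how many mitochondria a cell makes. They are the PGC-1 coactivators Ppargc1a, Ppargc1b and Pprc1, the nuclear factors Nrf1, Gabpa and Esrra through which these coactivators act, and Tfam, Tfb1m, Tfb2m and Polg, which act inside mitochondria on their DNA, its transcripts or their ribosomes. All probes whose gene name in the scanner files equals one of these names were taken, which gave 10 of 30214 gene names and 17 of 39429 probes on the array. They are reported probe by probe, because the probes of 1 gene can differ in brightness.

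The cells were AML12, a non-tumourigenic line derived from mouse hepatocytes. They carried a lentiviral scramble shRNA or a lentiviral shRNA against eIF6, a factor that keeps the large ribosomal subunit from joining the small one too early. All cells received doxycycline, which switches the shRNA on, and then insulin for 1 h at 100 nM (a protocol label gives mM in place of nM). RNA from polysomes (mRNAs with several ribosomes) and from the subpolysomal part of the sucrose gradient was hybridized to one-colour Agilent arrays, which gave 4 groups of 4 arrays: scramble subpolysomal, scramble polysomal, eIF6 shRNA subpolysomal and eIF6 shRNA polysomal. Per the methods of the study the 4 arrays of a group are biological replicates, and the labels do not tie the polysomal and subpolysomal arrays of a culture to each other.

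In hepatocytes the PGC-1 coactivators link fasting and energy demand to respiration, fatty acid oxidation and glucose output. They bind no DNA themselves. They dock on factors such as nuclear respiratory factor 1 (Nrf1), the ETS factor GABP (Gabpa encodes its DNA-binding subunit) and the orphan receptor ERRα (Esrra), and these switch on nuclear genes for mitochondrial proteins, Tfam and the Tfb genes among them. Nrf1 here is nuclear respiratory factor 1 and not Nfe2l1, a leucine zipper factor that is sometimes given the same name.

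A spot was counted as seen when the scanner software marked it well above background, and between 20196 and 24960 probes were seen per array. Values are log2 signals, quantile normalized over the 16 arrays, and a difference of 1 is a doubling. A probe entered the linear models of limma (25262 probes) when at least 1 group had it on 2 or more of its arrays, and it was called at a Benjamini-Hochberg adjusted p under 0.05 over all of them. Of the 17 probes, 16 entered, and 15 were seen on all 16 arrays. The shRNA could be followed on its own target. The 3 Eif6 probes were lower on polysomes of shRNA cells by log2 changes of -0.52, -1.38 and -1.26, all called, while their subpolysomal changes were between -0.02 and 0.04. As for the cell type, 8 of 10 hepatocyte markers had a probe seen on all 16 arrays, among them Hnf4a, Ttr and Trf. So did 3 of 4 epithelial, 5 of 5 mesenchymal, 2 of 4 immune and 2 of 3 endothelial markers. Being seen therefore does not tell cell types apart here. The probe of Alb, which encodes albumin, was seen on 0, 3, 2 and 2 arrays of the 4 groups in the order above, and that of Apoa1 on 0, 1, 0 and 2.

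The sequences of 7 probes are shown here, since the results for Ppargc1a and Nrf1 depend on which probe is read. The probes of Gabpa, which had the same calls as each other, are shown beside them. Each line gives 30 of a probe's 60 bases, 5′ to 3′ as printed in the scanner files. Capitals mark AATAAA, the usual polyadenylation signal, or ATTTA, the core of AU-rich elements. Both motifs were searched on the printed strand only.
Ppargc1a A_51_P279038: ccccttcaaatggcagcatttccatgaaga
Ppargc1a A_55_P2011702: acagctgcattcATTTAtcaccagcatatt
Nrf1 A_51_P201468: tggcagcgttttctagtctactgcagaatt
Nrf1 A_52_P376269: aagcaacatgggcgggaggatcttttatat
Nrf1 A_55_P2000077: gcgtgatagtgtATTTAatgtggtgttttt
Gabpa A_51_P364984: tgaagactcttattggatacagtgcagcag
Gabpa A_52_P152283: ttttactctttaAATAAAgacacttatact
AATAAA was in 1 of the 17 probes and in 12.6% of all probes on the array, and ATTTA was in 3 of the 17 and in 8.01% of all. The third ATTTA lay in a Tfam probe, A_52_P351785.

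Ppargc1a, which encodes PGC-1α, was the member that differed most between the shRNAs. Its bright probe A_51_P279038 lies on the minus strand of chromosome 5 at chr5:51848928-51848987 (mm9, the build of the file headers; exon and UTR annotation of that build was not used here). On subpolysomal RNA of scramble cells the normalized log2 signals of this probe were 4.61, 5.47, 5.16 and 4.39. On polysomes of scramble cells they were 5.61, 5.87, 5.44 and 6.02. In eIF6 shRNA cells they were 6.33, 6.18, 6.54 and 6.72 in the subpolysomal fraction and 7.02, 7.33, 7.48 and 8.01 on polysomes. All 8 arrays of shRNA cells stood above all 8 arrays of scramble cells, in either fraction.

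On polysomes, Ppargc1a was 3.3-fold higher with the eIF6 shRNA (log2 change 1.72, SE 0.24, limma adjusted p = 9.78e-05). Off polysomes it was 2.89-fold higher (log2 change 1.53, SE 0.24, limma adjusted p = 3.39e-04). Among all probes, 0.681% had a larger rise than this on polysomes and 0.598% in the subpolysomal fraction. Translational efficiency compares the fractions, so its change is taken here as the difference of these 2 changes. For this probe it was 0.19 with a 95% interval from -0.55 to 0.93 (limma adjusted p = 0.897). The order of the groups was scramble subpolysomal (4.91 ± 0.497, SD, n = 4), scramble polysomal (5.73 ± 0.258), shRNA subpolysomal (6.44 ± 0.236) and shRNA polysomal (7.46 ± 0.413). The lowest neighbours of that order overlapped in their single values, and the others did not. In bulk RNA, more cells with an mRNA and more of the mRNA per cell cannot be told apart.

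The 4 slides each held 1 array of every group. Within slides, the polysomal difference of Ppargc1a probe A_51_P279038 was 1.58, 2.39, 1.31 and 1.61 and the subpolysomal difference 1.79, 0.86, 1.37 and 2.11, all above 0. The within-slide change in translational efficiency was -0.21, 1.54, -0.06 and -0.50, so that the pooled value of 0.19 was above 0 through the second slide. With arrays scaled to 7 spike-in probes, with which the median change of all probes was -0.470 on polysomes and -0.232 off them, the changes of this probe were 1.37 (adjusted p = 0.0907) and 1.11 (adjusted p = 0.447), and neither was called. With another background correction (normexp with an offset of 50) they were 1.05 and 0.736, both called, and with the mean of both Ppargc1a probes the subpolysomal change was 0.952.

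**Figure D1:**
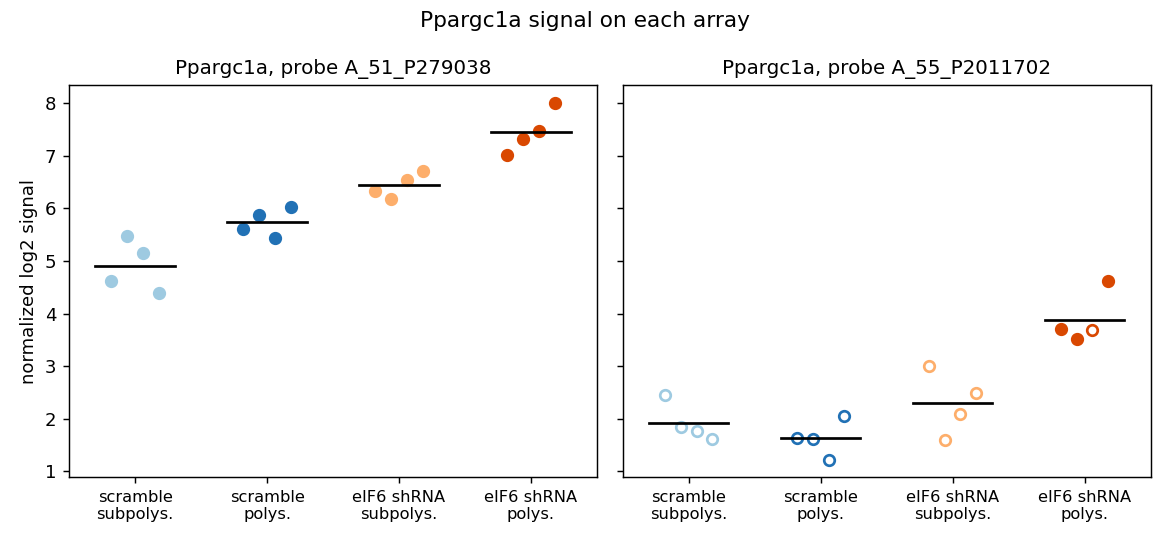
Normalized log2 signal (y axis) of the 2 Ppargc1a probes on each of the 16 arrays, by group (x axis). Points are arrays, filled where the spot was well above background and open where it was not, and lines are group means. For A_51_P279038 all 8 shRNA arrays lie above all 8 scramble arrays, and for A_55_P2011702 only 3 shRNA polysomal arrays were well above background.

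The other Ppargc1a probe, A_55_P2011702, lies 2002 bases further downstream at chr5:51846926-51846985 (mm9, minus strand) and was dim. It was seen on no array of the scramble groups or of shRNA subpolysomal RNA, and on 3 of 4 shRNA polysomal arrays. On polysomes of shRNA cells its normalized log2 signals were 3.71, 3.51, 3.68 and 4.62, and on polysomes of scramble cells, where it was not well above background, 1.64, 1.61, 1.22 and 2.05. With the dim group set to the lowest signal seen on each array, the signal on polysomes of shRNA cells was at least 2.27-fold higher (measured means 3.88 and 1.63). The probe entered the fit through the shRNA polysomal arrays alone, so this bound is a description, with no test. Off polysomes neither group was seen, so this probe gave no subpolysomal change and no translational efficiency.

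Ppargc1b, which encodes PGC-1β, had 1 probe on chromosome 18, A_55_P1993168. It was seen on 0 of 16 arrays, with scanner intensities between 1.79 and 11.6, and it did not enter the fit. Pprc1, the third family member, encodes a coactivator that responds to serum. Its probe A_55_P1991693 (chr19:46147311-46147370, mm9) had normalized log2 signals of 8.73, 8.46, 8.57 and 8.54 off polysomes and 7.22, 7.39, 7.56 and 7.18 on polysomes of scramble cells. In shRNA cells they were 8.68, 8.68, 8.47 and 8.43 off polysomes and 7.51, 7.16, 7.86 and 7.85 on them. The subpolysomal arrays of both shRNAs lay in 1 range, and the polysomal arrays overlapped. The polysomal change of Pprc1 was 0.26 (95% interval -0.05 to 0.57, adjusted p = 0.261) and the subpolysomal change -0.01 (adjusted p = 0.974). Neither coactivator other than Ppargc1a was therefore called, and Ppargc1b could not be measured.

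Of the 3 probes of Nrf1, a factor that binds the promoters of many respiratory chain genes, 1 was called on polysomes. It was A_55_P2000077 (chr6:30103035-30103094, mm9), with signals of 10.62, 10.61, 10.64 and 10.44 in scramble cells and 10.39, 10.27, 10.33 and 10.37 in shRNA cells. The groups did not overlap, and the log2 change was -0.24 (SE 0.079, limma adjusted p = 0.0451), with within-slide differences of -0.25, -0.25, -0.17 and -0.28. The call was lost in 6 of 11 other settings, among them the slide as a block (adjusted p = 0.0546), and in 17 of 20 fits with arrays left out, each with the same direction. The probes A_51_P201468 and A_52_P376269, which lie 1342 and 36894 bases upstream of it, had polysomal changes of 0.03 and -0.11 and were not called. These 2 probes moved together over the 16 arrays (r = 0.83), while A_55_P2000077 did not move with them (r = 0.06 and -0.04, as descriptions). The subpolysomal changes of the 3 Nrf1 probes were -0.22, 0.13 and -0.15, none called.

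Gabpa and Esrra, the other partners, were not called in either fraction. The 2 Gabpa probes had polysomal changes of -0.12 and -0.11 and subpolysomal changes of 0.26 and -0.16. The Esrra probe A_55_P1954306 had signals of 13.14, 13.08, 13.30 and 12.43 on polysomes of scramble cells and 13.41, 13.32, 13.51 and 13.14 on polysomes of shRNA cells, with a change of 0.36 (95% interval 0.04 to 0.67, adjusted p = 0.111). The fourth scramble array was the lowest of the 8. Off polysomes the Esrra signals were between 13.73 and 13.89 in all 8 arrays, with a change of 0.05 (95% interval -0.27 to 0.37).

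The genes that act inside mitochondria were not called with the shRNA either. Tfam encodes the protein that packages mitochondrial DNA and starts its transcription. Its 3 probes, between positions 70688866 and 70691319 of chromosome 10 (mm9), had polysomal changes of -0.17, -0.17 and -0.16 and subpolysomal changes of -0.10, -0.27 and -0.05. All 6 values were below 0, and the adjusted p-values were between 0.268 and 0.784. Tfb1m encodes an rRNA methyltransferase of the mitochondrial ribosome. Its signals on polysomes were 8.76, 8.57, 8.56 and 8.73 in scramble cells and 8.55, 8.31, 8.25 and 8.52 in shRNA cells. They did not overlap, with 8.56 and 8.55 as the nearest values, and the change of -0.24 was not called (adjusted p = 0.133). Off polysomes, Tfb1m was at 7.21, 7.44, 7.28 and 7.07 in scramble cells and at 7.48, 7.37, 7.70 and 7.38 in shRNA cells, a change of 0.23 (adjusted p = 0.137). With opposite signs in the fractions, its change in translational efficiency was -0.47 (95% interval -0.80 to -0.15, within-slide values -0.31, -0.27, -0.84 and -0.49), which was not called after adjustment (adjusted p = 0.174). Tfb2m, a partner of the mitochondrial RNA polymerase, changed by -0.04 on polysomes and -0.18 off them, and neither was called. For Polg, the catalytic subunit of the mitochondrial DNA polymerase, the 2 probes changed by 0.01 and 0.14 on polysomes and by -0.06 each off them, with no call.

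**Figure D2:**
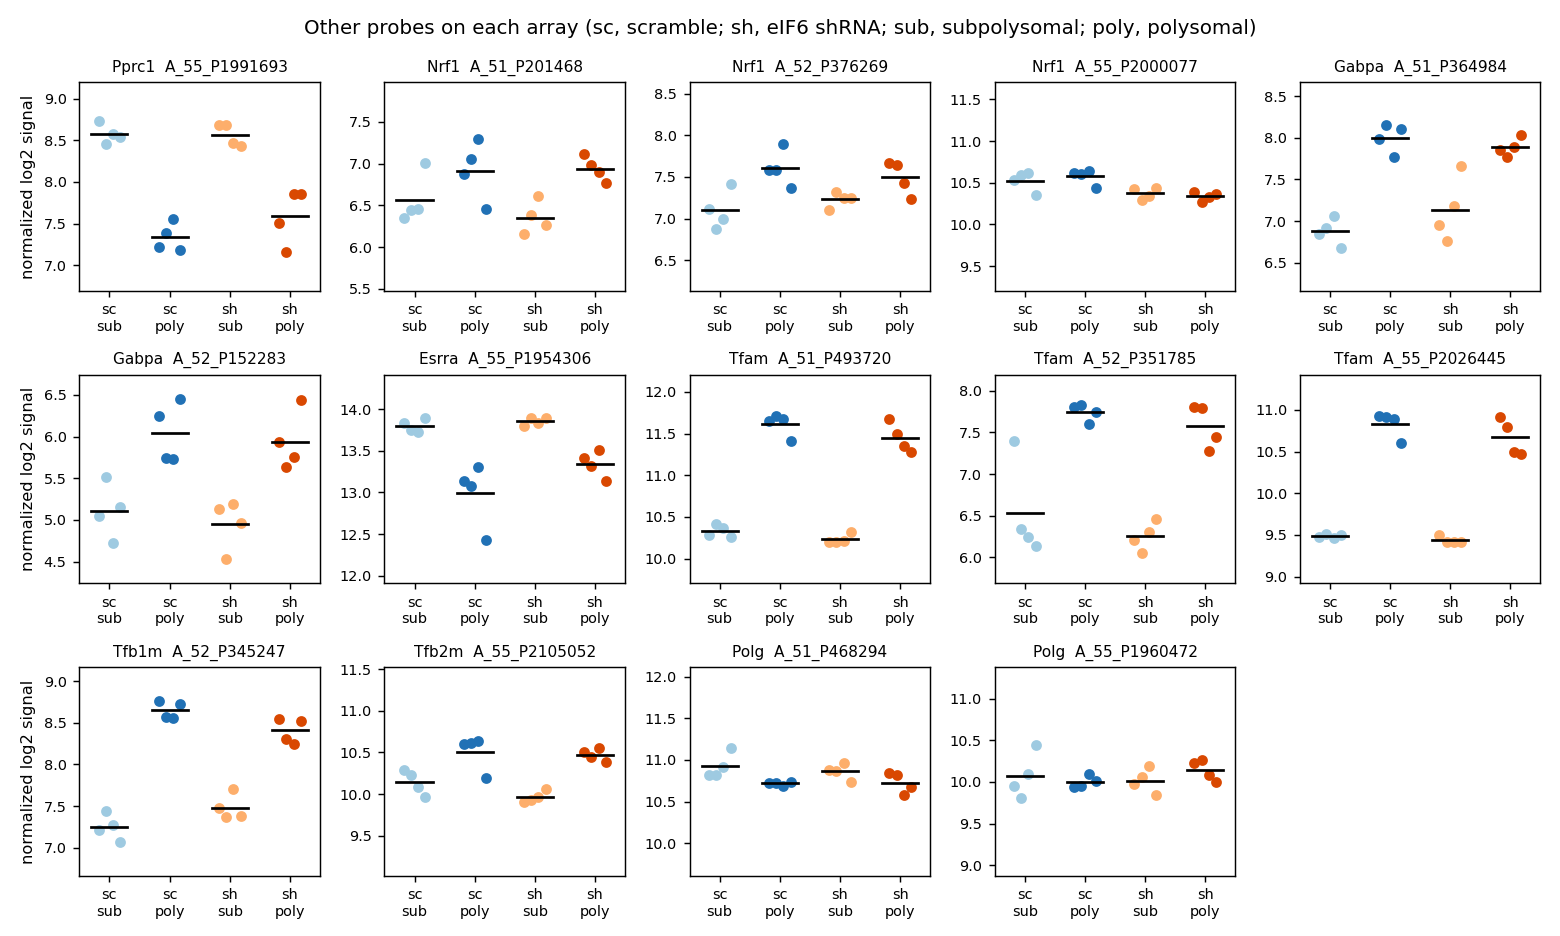
Normalized log2 signal (y axis, each panel spanning the same number of log2 units) on each of the 16 arrays for the 14 probes that were seen on all arrays and do not belong to Ppargc1a. Points are arrays and lines are group means, and a reader should see that the step from subpolysomal to polysomal RNA is larger than the step between the shRNAs for most probes, for example for the Tfam probe A_55_P2026445 (1.35 against -0.16).

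Counts are given over the 15 probes seen on all 16 arrays, which leaves out the dim Ppargc1a probe and that of Ppargc1b. On polysomes 2 of the 15 were called (1 higher, 1 lower), against 21.0% of all probes tested (10.8% higher, 10.2% lower). In the subpolysomal fraction 1 was called, against 23.3% of all probes. In translational efficiency 0 of 15 were called, against 1.25% of all probes, and 1 had an unadjusted p under 0.05 in limma, the Tfb1m probe. The groups did not overlap for 3 of 15 probes on polysomes and for 1 of 15 off them, against 22.0% and 30.9% of all probes. The median changes of the 15 probes were -0.11 on polysomes and -0.06 off them, and those of all probes 0.02 and 0.02. The 14 probes of genes other than Ppargc1a changed by -0.24 to 0.36 on polysomes and by -0.27 to 0.26 off them. Their 95% intervals reached from -0.64 to 0.67 on polysomes and from -0.75 to 0.60 off them. These ends belong to different probes, on polysomes to Tfam A_52_P351785 and Esrra. Single intervals could be narrower, as for Polg A_51_P468294 on polysomes (-0.18 to 0.20). They hold under quantile normalization only, and with spike-in scaling Nrf1 A_55_P2000077 changed by -0.707 on polysomes. In simulated arrays of the polysomal change, 20% of probes with a log2 change of 0.5 were called, and 74% with a change of 1. Only 200 of 25215 probes were changed there, against 21.0% called in the data. The adjusted threshold was therefore stricter in the simulation, and its shares do not carry over to the members.

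**Figure D3:**
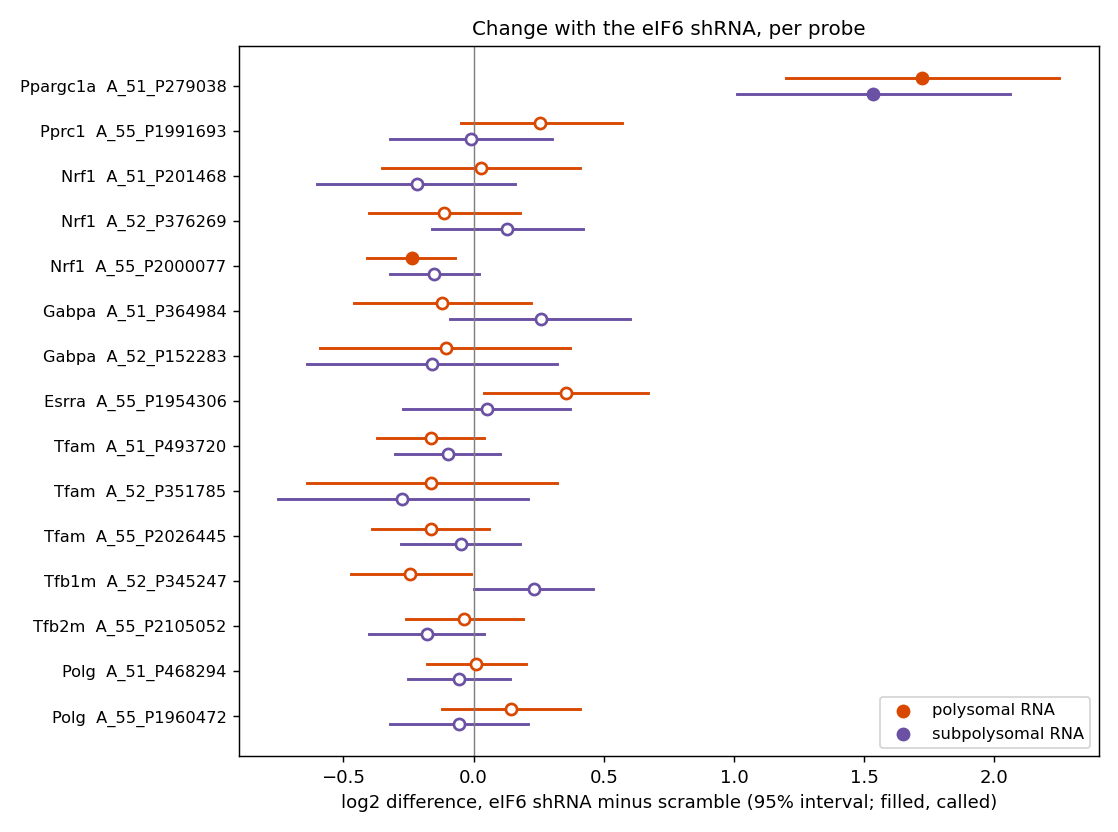
Log2 difference between eIF6 shRNA and scramble cells (x axis) for each of the 15 probes seen on all arrays (y axis), on polysomal and on subpolysomal RNA. Points are limma estimates, filled where called and open where not, and bars are 95% intervals. Ppargc1a stands to the right at 1.72 and 1.53, and the other probes lie between -0.27 and 0.36.

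Like most probes of the array, most member probes were called between the fractions in both kinds of cells. Since quantile normalization gives both fractions the same distribution, these differences are relative to the other probes, whose median was 0.07 in scramble cells. Of the 15 probes, 11 were called in scramble cells (9 higher on polysomes, 2 lower), against 60.4% of all probes called, 32.7% higher and 27.6% lower. The groups did not overlap for 9 of the 15, against 54.7% of all probes. In shRNA cells 11 of 15 were called (9 higher, 2 lower), against 60.9% of all probes (33.6% higher, 27.3% lower), and 11 did not overlap, against 56.4%.

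In scramble cells, Tfam and Tfb1m had the highest differences between polysomal and subpolysomal signal among the 15 probes. The Tfam probe A_55_P2026445 had signals of 9.47, 9.51, 9.46 and 9.50 off polysomes and 10.93, 10.91, 10.89 and 10.60 on polysomes of scramble cells. In shRNA cells the signals were 9.50, 9.41, 9.42 and 9.41 off polysomes and 10.92, 10.80, 10.49 and 10.47 on them. The difference was 1.35 (SE 0.11, limma adjusted p = 5.67e-08) in scramble cells and 1.23 in shRNA cells. The other Tfam probes, A_51_P493720 and A_52_P351785, differed by 1.28 and 1.22 in scramble cells, both called. For Tfb1m the difference was 1.40 in scramble cells (adjusted p = 4.37e-08, within-slide values 1.48, 1.31, 1.45 and 1.35) and 0.93 in shRNA cells. The Gabpa probes differed by 1.13 and 0.93 in scramble cells, and Tfb2m by 0.36, all called.

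Esrra and Pprc1 went the other way. The difference of Esrra was -0.81 in scramble cells (SE 0.15, limma adjusted p = 2.36e-04, within-slide values -0.58, -0.61, -1.30 and -0.76) and -0.51 in shRNA cells. That of Pprc1 was -1.24 (SE 0.14, limma adjusted p = 3.55e-06) and -0.97. Both lay below the median probe in either kind of cells. When each fraction was normalized on its own, or arrays were scaled to the spike-in probes, the median difference of all probes was 1.44 and 1.57, and the differences of Esrra (0.987 and 1.14) and Pprc1 (0.269 and 0.359) turned positive while staying under these medians.

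Ppargc1a probe A_51_P279038 was higher on polysomes by 0.83 in scramble cells (adjusted p = 0.00884, 0.14 to 1.26 within slides) and by 1.02 in shRNA cells (adjusted p = 0.00222). The call in scramble cells was lost with arrays scaled to their 75th percentile (0.336, adjusted p = 0.204). Of the Nrf1 probes, only A_52_P376269 was called in scramble cells (0.50), and that call was lost under the same scaling (0.328, adjusted p = 0.0684), as was that of Gabpa probe A_52_P152283 (0.481, adjusted p = 0.0564). The Polg probes differed by -0.20 and -0.07 and were not called. The difference of the fractions in scramble cells and that in shRNA cells rest on separate arrays, and their difference is the change in translational efficiency, in which no member was called.

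**Figure D4:**
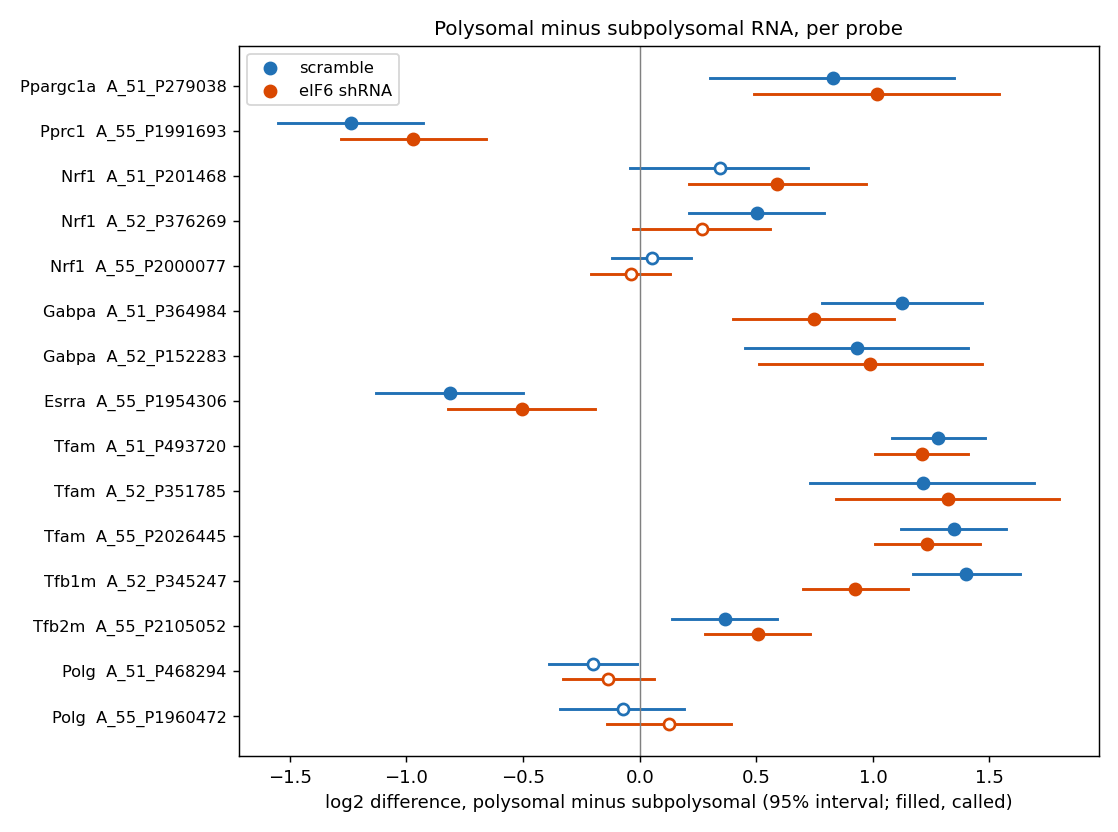
Log2 difference between polysomal and subpolysomal RNA (x axis) for the 15 probes seen on all arrays (y axis), in scramble and in eIF6 shRNA cells. Points are limma estimates, filled where called, and bars are 95% intervals. Tfam, Tfb1m and Gabpa lie to the right (0.75 to 1.40), Esrra and Pprc1 to the left (-0.51 to -1.24), and the Polg probes near 0.

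The wider pathway was followed with 3 lists. The regulators and partners of PGC-1 (kinases, deacetylases, corepressors and receptors) had 73 probes for 45 genes in the fit. On polysomes 7 of the 73 probes rose and 2 fell (12.3% called, against 21.0% of all), with a median change of 0.07. Among probes seen on all 16 arrays, the genes that rose most were Prkaa2, a catalytic subunit of AMP-activated kinase (0.79, adjusted p = 0.0196), Ncor1, a corepressor of nuclear receptors (0.58, adjusted p = 0.0478), and Esrrb, an orphan receptor related to Esrra (0.55, adjusted p = 0.00183). The other Ncor1 probes changed by 0.17, 0.35 and 0.29 on polysomes and were not called (limma adjusted p = 0.192, 0.117 and 0.166). In the subpolysomal fraction 5 probes rose and 6 fell (15.1% called, against 23.3% of all), and on the same condition the genes with the largest changes were Prkaa2 (0.79), Nfe2l1 (0.56) and Creb1, a factor that activates Ppargc1a in fasted liver (-0.50). Outside this condition, and named after its values were seen, Lpin1, a phosphatidate phosphatase that also acts as a coactivator, rose by 0.80 on polysomes and 1.17 off them at a probe seen on 15 arrays. Esrrb was the only listed regulator called in translational efficiency (0.74, limma adjusted p = 0.029). It was 1 of 73 probes (1.37% called, against 1.25% of all). That call was lost in 12 of 20 fits with arrays left out and in 5 other settings. These were 75th percentile scaling (adjusted p = 0.169), spike-in scaling, normexp background (0.198), no filter (0.0562) and the replicate block (0.0657). With spike-in scaling none of these 5 genes was called. Without single arrays or replicates Ncor1 lost its polysomal call in 16 of 20 fits, and Creb1 its subpolysomal call in 9. Prkaa2 lost its call in 4 fits on polysomes and 5 off them, and Nfe2l1 in 3 off them. Creb1 also lost its call with 75th percentile scaling and with normexp background.

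The second list held genes that PGC-1 coactivators are known to raise, with 49 probes for 32 genes in the fit. On polysomes 2 probes rose and 5 fell (14.3% called, against 21.0% of all), and off polysomes 3 rose and 4 fell (14.3%, against 23.3% of all). The median change was 0.11 in either fraction. By gene, 3 fell on polysomes, and 2 rose. These 2 were Sirt3, a mitochondrial deacetylase (0.47), and Cpt2, a carnitine palmitoyltransferase (0.92, at a probe seen on 14 arrays). The other Cpt2 probe, seen on all 16 arrays, changed by 0.50 on polysomes and was not called (limma adjusted p = 0.0933). Among probes seen on all 16 arrays, the largest changes were in Ucp2, a carrier of the inner mitochondrial membrane (-1.29 on polysomes and -1.41 off them), Txn2, the mitochondrial thioredoxin (-0.84 and -0.61), and Cycs, which encodes cytochrome c (-0.55 on polysomes, and -0.41 off them at another probe). With spike-in scaling Txn2 (-1.37 and -0.868) and Cycs (-0.834 and -0.633) were not called, though these values lay further below 0. In translational efficiency 0 of 49 probes were called, against 1.25% of all, and 6 had an unadjusted p under 0.05 in limma.

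The third list held other genes for the upkeep and expression of mitochondrial DNA, with 43 probes for 31 genes in the fit. On polysomes 2 probes rose and 1 fell, and off polysomes 2 rose and 1 fell (6.98% called in each, against 21.0% and 23.3% of all). Those called on polysomes were Mterfd3 (0.34), Mterfd2 (0.28) and Hsd17b10, a subunit of mitochondrial RNase P (-0.32). Off polysomes they were Hsd17b10 (0.36), the mitochondrial nuclease gene Endog (0.33) and Mtpap, the mitochondrial poly(A) polymerase (-0.26). Hsd17b10 was the only listed gene called in translational efficiency (-0.68, limma adjusted p = 0.0113). It was 1 of 43 probes (2.33% called, against 1.25% of all). With spike-in scaling the changes of Mterfd2 (-0.154) and Mterfd3 (-0.129) turned negative, and no gene named from this list was called. With arrays left out, Mtpap lost its call in 10 of 20 fits, Mterfd3 in 9, Mterfd2 in 4 and Endog in 2. Hsd17b10 lost its call in 4 fits on polysomes, 2 off them and 4 in translational efficiency. Mtpap also lost its call with 75th percentile scaling and the replicate block, and Hsd17b10 its polysomal call with 75th percentile scaling.

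The genes whose pattern was most like that of Ppargc1a probe A_51_P279038 were sought among 18749 probes seen on all 16 arrays, by Pearson correlation over the arrays. They were Mcc (r = 0.979), Vsig1 (0.978), Fas (0.977), Palmd (0.976) and Tle3 (0.976). Each of these rose with the shRNA on polysomes, by 0.93, 1.78, 0.92, 1.15 and 0.95, and off them, by 0.79, 1.24, 0.68, 0.94 and 0.68. None of the 5 was called in translational efficiency. Since the 5 were picked for their likeness on these same arrays, such changes follow from the choice and are a description.

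Markers of mesenchymal cells moved with the shRNA beside Ppargc1a. All 5 had a probe seen on all 16 arrays, and 4 of them, Col1a1, Col1a2, Acta2 and Pdgfrb, fell on polysomes and off them. Of all probes, 10.2% were called lower on polysomes and 11.9% off them. In translational efficiency 2 of the 5 were called lower, against 0.930% of all probes. The log2 of the summed signal of the 5 was between 17.29 and 18.05 on polysomes of scramble cells and between 14.71 and 15.41 on polysomes of shRNA cells. Off polysomes it was 16.97 to 17.06 and 15.84 to 16.15. Of 13 probes of hepatocyte markers, 3 (Afp, Ttr and Tat) rose on polysomes and 0 fell (23.1% called, against 21.0% of all probes), with a median change of -0.18 over the 13. The part of these changes in the rise of Ppargc1a was not tested.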

How the data were processed

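The authors hybridized polysomal and subpolysomal RNA of AML12 cells to 16 one-colour Agilent arrays and deposited, for each array, 1 background-corrected intensity per spot, without normalization between arrays. The file headers name Feature Extraction 10.7.3.1 and the labels 10.7.7.1. They also deposited a log2 table of the same arrays, quantile normalized (per array, r = 0.9947 to 0.9997 with the scanner values on a log2 scale).

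Files were parsed in R 4.3.3 (package version 1.17.8 of its fast table reader). Spots marked uneven or as outliers were dropped, so that 82 probe values were missing, with none imputed. Repeated spots were averaged, and probes that 2 or more arrays of at least 1 group had seen were quantile normalized on the log2 scale. limma 3.58.1 was fitted per probe to 16 arrays with 4 group means, and the adjustment was Benjamini-Hochberg over 25262 probes. No spot was saturated, and no pair of arrays was identical. The number of arrays limits the precision. Eif6 served as the check of the shRNA. Each list gave, per comparison of the shRNAs, up to 3 genes with the largest called change among probes seen on all 16 arrays, and the 5 genes most like Ppargc1a were taken by correlation. The members and lists were chosen with earlier results of these data known. For a probe not seen in 1 group, the fold was bounded by the higher of its own signal and the lowest signal seen on each array.

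The fit was tested on simulated data drawn from 25215 probes, with 200 changed on polysomes. Alternatives were 3 scalings (75th percentile, each fraction on its own, 7 spike-in probes), normexp background with an offset of 50, 2 other filters, normalization before the filter, the mean of a gene's probes, the log2 values as deposited, a block for the slide, a block for the replicate number, and arrays left out. Python 3.11.15 and matplotlib 3.10.9 drew the figures.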

Additional observations from a re-analysis of the deposited data

Results flagged for a closer look

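In 6 of 64 groups of 4 arrays (16 probes, 4 groups each) a single array stood apart from the other 3 by Dixon's gap test, where chance gives about 1 in 20 groups. In scramble subpolysomal RNA, replicate 4 was at 7.01 for the Nrf1 probe A_51_P201468 (next 6.46), and replicate 1 was at 7.40 for the Tfam probe A_52_P351785 (next 6.34). On scramble polysomes, replicate 4 was the lowest array for 3 probes, at 10.44 for the Nrf1 probe A_55_P2000077 (next 10.61), at 10.60 for the Tfam probe A_55_P2026445 (next 10.89) and at 10.19 for the Tfb2m probe (next 10.60). In shRNA subpolysomal RNA, replicate 4 was at 10.32 for the Tfam probe A_51_P493720 (next 10.21).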

How the results depend on the processing

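For all 11 other settings and all 20 fits with arrays left out, the bright Ppargc1a probe (or the mean of both probes) stayed higher with the shRNA in both fractions, and spike-in scaling was the only one of them in which it was not called. Counts here are over the 16 probes in the fit, the dim Ppargc1a probe included. Polysomal calls numbered 1 with spike-in scaling (the dim probe) and 1 of 9 genes with the mean of the probes of a gene, and subpolysomal calls 0 with spike-in scaling. Calls over all probes fell with spike-in scaling as well, as given below. In translational efficiency 1 probe, the dim Ppargc1a probe that has no reported value there, was called with 75th percentile scaling, with each fraction normalized on its own, with the slide as a block and with the replicate block (1 in each). That probe entered the fit through the shRNA polysomal arrays alone and was not seen off polysomes. Its calls, those on polysomes included, are therefore only counted here and are no test of Ppargc1a. With gene means, 7 of 9 genes differed between the fractions of scramble cells, beside 6134 higher and 5496 lower among all 19367 gene names. With arrays left out, calls were 2 to 3 on polysomes, 1 to 3 off polysomes (3 without replicate 4, where Nrf1 and Tfb2m were added), 0 to 1 in translational efficiency (1 without shRNA subpolysomal replicate 1) and 9 to 12 between the fractions.

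Signs turned for changes near 0 and also for larger ones. Among the larger ones, as quantile normalized over all arrays, were Esrra (0.36), Mterfd3 (0.34), Mterfd2 (0.28) and Pprc1 (0.26) on polysomes. Between the fractions of scramble cells they included Esrra (-0.81) and Pprc1 (-1.24). With spike-in scaling the polysomal changes became -0.463 (Nrf1 A_51_P201468), -0.444 (Polg A_51_P468294), -0.325 (Polg A_55_P1960472), -0.115 (Esrra), -0.191 (Pprc1), -0.154 (Mterfd2) and -0.129 (Mterfd3), and the subpolysomal ones -0.0865 (Tfb1m), -0.175 (Nrf1 A_52_P376269), -0.0448 (Gabpa A_51_P364984) and -0.141 (Esrra). Translational efficiency became -0.248 (Gabpa A_52_P152283), -0.123 (Tfam A_52_P351785), -0.123 (Polg A_51_P468294), -0.00939 (Polg A_55_P1960472) and -0.0627 (Tfb2m). The differences between fractions became 1.66 and 1.73 (Polg), 1.14 (Esrra) and 0.359 (Pprc1), and with each fraction on its own 1.55 and 1.61 (Polg), 0.987 (Esrra) and 0.269 (Pprc1). These scalings moved the median of all probes as given above. With 75th percentile scaling Polg A_55_P1960472 differed by 0.0116 between fractions and Gabpa A_52_P152283 had a translational efficiency change of -0.0567. Gene means, which average probes of unlike sign, gave -0.107 for Nrf1 on polysomes, 0.0496 for Gabpa and -0.0802 for Nrf1 off them, and -0.163 (Gabpa), -0.0238 (Tfam) and -0.0269 (Nrf1) in translational efficiency. With arrays left out, signs turned on polysomes for Gabpa A_52_P152283 (-0.27 to 0.029), Nrf1 A_52_P376269 (-0.189 to 0.00337), Nrf1 A_51_P201468 (-0.125 to 0.166), Polg A_51_P468294 (-0.0297 to 0.0586) and Tfb2m (-0.143 to 0.00477), and off polysomes for Gabpa A_52_P152283 (-0.365 to 0.122), Tfam A_52_P351785 (-0.469 to 0.0346), Polg A_51_P468294 (-0.0981 to 0.0591), Polg A_55_P1960472 (-0.159 to 0.125) and Pprc1 (-0.0843 to 0.0433). In translational efficiency they turned for Gabpa A_52_P152283 (-0.227 to 0.22), Tfam A_52_P351785 (-0.252 to 0.346), Nrf1 A_51_P201468 (-0.0255 to 0.503), Polg A_51_P468294 (-0.025 to 0.144) and Ppargc1a A_51_P279038 (-0.00601 to 0.367), and between fractions for Polg A_55_P1960472 (-0.161 to 0.0502) and Nrf1 A_55_P2000077 (-0.00376 to 0.0989). The cause was not tested.

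Arrays with the same replicate number mostly did not deviate together (24 pairs, median r -0.0116, and 3 of 16 arrays correlated best with their own number). The exception was replicate 4 on polysomes, where the scramble and shRNA arrays had r = 0.432. Arrays of the same slide did deviate together somewhat (median r 0.128, highest 0.289, and 12 of 16 arrays). With the replicate block the polysomal change of the bright Ppargc1a probe kept its call (1.72, adjusted p = 3.48e-04) and that of Nrf1 A_55_P2000077 lost it (-0.238, adjusted p = 0.0662). With spike-in scaling the counts of the lists went to 0, 1 and 1 on polysomes and 0, 1 and 0 off polysomes (regulators, PGC-1 targets and mitochondrial DNA genes), from 9, 7 and 3 and from 11, 7 and 3, and that of the mitochondrial DNA genes on polysomes went to 6 with normexp background and with the slide as a block, and to 5 with the replicate block. With arrays left out the list counts were 3 to 12, 3 to 17 and 0 to 6 on polysomes and 2 to 18, 4 to 17 and 0 to 12 off polysomes. Calls over all probes moved too. With spike-in scaling they went from 2588 lower and 2722 higher of 25262 to 1312 and 129 on polysomes. Off polysomes they went from 3011 lower and 2885 higher to 473 and 53. Without replicate 1 they were 1775 and 1605 on polysomes and 1732 and 1540 off them. Without replicate 4 they were 3002 and 3422 on polysomes and 4091 and 3979 off them. Probes near background, such as the dim Ppargc1a probe and that of Ppargc1b, are limited by signal over background and not by the number of arrays alone.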
